A study of Mus musculus with 10 samples.

Results

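Interferons, interleukin-10 (IL-10) and the common-gamma cytokines act through receptors built of paired chains, and the genes of 10 such chains were examined in sorted mouse retinal cells after optic nerve crush (ONC). They were *Ifnar1* and *Ifnar2* (type I interferon receptor), *Ifngr1* and *Ifngr2* (interferon gamma receptor), *Il10ra* and *Il10rb* (IL-10 receptor), and *Il2rb*, *Il2rg*, *Il4ra* and *Il7r* (common-gamma family receptors). The genes were chosen by symbol, and each of the 10 matched 1 of the 53974 genes with RNA-seq values. Regions measured by ATAC-seq, an assay of open chromatin, were taken where they lay within 1000 bp of either end of one of these genes, which held for 5 of 16600 regions.

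All mice were C57BL/6 of 8 to 10 weeks with floxed *Arid1a*, a subunit gene of the SWI/SNF chromatin-remodeling complex. Animals of the WT group (genotype *Arid1a* fl/fl) were given AAV2-GFP into the vitreous and animals of the cKO group (*Arid1a* del/del) AAV2-Cre, both under a CMV promoter that is not restricted to retinal ganglion cells (RGCs). The authors give a lower titer for AAV2-Cre than for AAV2-GFP, so the virus and its titer differed along with the label. Their part in the values below cannot be told apart from that of *Arid1a*. The nerve was crushed 2 weeks later in both groups, and 3 days after ONC live cells that bound a Thy1.2 antibody were sorted from 4 to 5 pooled retinas per sample. RNA-seq covered 3 libraries of each label and ATAC-seq covered 2, described by the submitters as biological replicates.

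A cytokine pulls its receptor chains together, the Janus kinases (JAKs) bound to the chains become active, and STAT transcription factors are phosphorylated and enter the nucleus. Both interferon receptors are found on most cells of the body, including neurons and glia, as is the IL10RB chain. The IL-10 binding chain and the common-gamma family chains are best known from lymphocytes and myeloid cells, and Thy1.2, the antigen used for sorting, is carried by mouse T cells as well as by RGCs.

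The label check and the cell markers bear on every RNA value below. *Arid1a* itself measured 18.8, 11.7 and 14.1 TPM (an abundance corrected for transcript length, with a common total in every library) in the libraries labelled WT and 18.8, 27.9 and 25.0 TPM in those labelled cKO. It was thus not lower in the libraries labelled cKO (log2 fold change 0.66, SE 0.28, adjusted p = 0.274 by limma), and directions are given by label throughout. These are values for the whole gene in bulk sorted cells, so they do not show whether the floxed part was deleted in RGCs. By immunostaining, the authors report less ARID1A protein in RGCs after AAV2-Cre than after AAV2-GFP. The RGC marker *Rbpms* was at 1.82 to 6.43 TPM over the 6 libraries, while *Cd3e*, a defining T cell gene, was at 56.7 to 83.1 TPM in the libraries labelled WT and 9.13 to 16.5 TPM in those labelled cKO. In bulk samples such as these, fewer cells of a type and less RNA per cell cannot be told apart. Sequencing depth is unknown, because TPM values do not keep it.

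Promoter sequences are shown first, for *Ifnar1*, *Ifnar2* and *Ifngr1*, whose ATAC-seq regions differed most between groups, and for *Il2rg* and *Il7r*, which had no region at either end. Each run is the 250 bases before the RefSeq transcription start (GRCm38.p6), read 5′ to 3′ on the strand of the gene, and capitals mark the 4 short motifs searched on both strands. These were the GC box GGGCGG, the interferon gamma-activated site (GAS) TTCNNNGAA, the core of the interferon-stimulated response element (ISRE) GAAANNGAA and an ETS factor core CGGAAG, and a match is only a match of letters. Promoter sequences were at hand for 7 of the 10 genes, the others being *Il10ra*, *Il10rb* and *Il2rb*.
Ifnar1, chr16:91484965-91485214, plus strand: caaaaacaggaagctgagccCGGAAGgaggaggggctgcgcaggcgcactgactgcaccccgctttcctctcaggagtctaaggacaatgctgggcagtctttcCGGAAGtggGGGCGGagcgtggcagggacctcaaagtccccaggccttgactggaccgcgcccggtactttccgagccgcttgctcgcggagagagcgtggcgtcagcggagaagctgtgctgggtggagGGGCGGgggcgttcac
Ifnar2, chr16:91372533-91372782, plus strand: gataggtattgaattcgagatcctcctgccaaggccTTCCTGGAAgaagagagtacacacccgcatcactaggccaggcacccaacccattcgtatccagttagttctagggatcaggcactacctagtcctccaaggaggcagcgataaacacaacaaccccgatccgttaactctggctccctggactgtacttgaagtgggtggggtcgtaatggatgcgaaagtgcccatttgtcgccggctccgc
Ifngr1, chr10:19591699-19591948, plus strand: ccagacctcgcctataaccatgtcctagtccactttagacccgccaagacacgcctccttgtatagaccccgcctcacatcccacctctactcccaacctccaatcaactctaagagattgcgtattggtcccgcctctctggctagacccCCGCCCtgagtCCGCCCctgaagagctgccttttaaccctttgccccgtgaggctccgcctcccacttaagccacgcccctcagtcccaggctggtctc
Il2rg, chrX:101268256-101268505, minus strand: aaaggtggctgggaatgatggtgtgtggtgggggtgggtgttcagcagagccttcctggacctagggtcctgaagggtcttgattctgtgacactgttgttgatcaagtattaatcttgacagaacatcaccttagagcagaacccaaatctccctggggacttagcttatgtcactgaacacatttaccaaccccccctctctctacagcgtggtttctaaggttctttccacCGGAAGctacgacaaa
Il7r, chr15:9529877-9530126, minus strand: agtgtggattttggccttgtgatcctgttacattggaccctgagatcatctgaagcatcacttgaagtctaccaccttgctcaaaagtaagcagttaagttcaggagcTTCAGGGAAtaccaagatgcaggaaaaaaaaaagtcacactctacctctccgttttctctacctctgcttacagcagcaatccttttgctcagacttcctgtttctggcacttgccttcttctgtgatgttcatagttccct

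The *Ifnar1* stretch held 2 GC boxes and 2 ETS cores, and the *Ifngr1* stretch 2 GC boxes on the opposite strand. *Ifngr2* had 4 GC boxes, some of which overlap, and *Il4ra* had 1. No GC box lay in the windows of *Ifnar2*, *Il2rg* or *Il7r*. Among all 32851 promoters of the same length, 32.7% held a GC box. The GAS letters were present once in *Ifnar2* and once in *Il7r* (7.02% of all promoters), the ETS core once in *Il2rg* (13.6%), and the ISRE letters in none of the 7 windows (7.13%). Base composition went with the GC boxes. G and C made up 65.6% of the *Ifnar1* window, 59.2% for *Ifngr1*, 74.0% for *Ifngr2* and 59.6% for *Il4ra*, against 54.0% for *Ifnar2* and a median of 52.4% for all promoters. The windows of *Il2rg* (49.2%) and *Il7r* (44.0%) lay below that median, with 3 and 1 CpG pairs where *Ifnar1* had 19 and *Ifngr2* had 25.

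All 10 receptor chains passed the filter on low values, and all had a lower mean TPM in the libraries labelled cKO. The log2 fold change of TPM plus 1 was negative for 10 of 10, against 38.9% of the 17555 genes tested, with a median of -0.81 where the median of all genes was 0.16. No chain passed an adjusted p of 0.05 in limma, and across all genes 0% passed in the lower direction and 0.0057% in the higher. At an unadjusted p under 0.05, 8 of the 10 were lower (6.45% of all genes) and 0 were higher (11.9%). This count was 4 without WT replicate 3 (4.97% of all genes), and 5 without cKO replicate 1 (5.24%) or cKO replicate 2 (4.12%). In 5 of the 10, every library labelled cKO lay below every library labelled WT (7.18% of all genes), and 0 showed the opposite order (18.7%). This count of 5 rose to 8 without WT replicate 1, where the share of all genes rose to 14.3%. Log2 fold changes of -1 or lower belonged to *Il10ra*, *Il2rb*, *Il2rg* and *Il7r*, which is 4 of 10 against 6.87% of all genes.

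**Figure D1:**
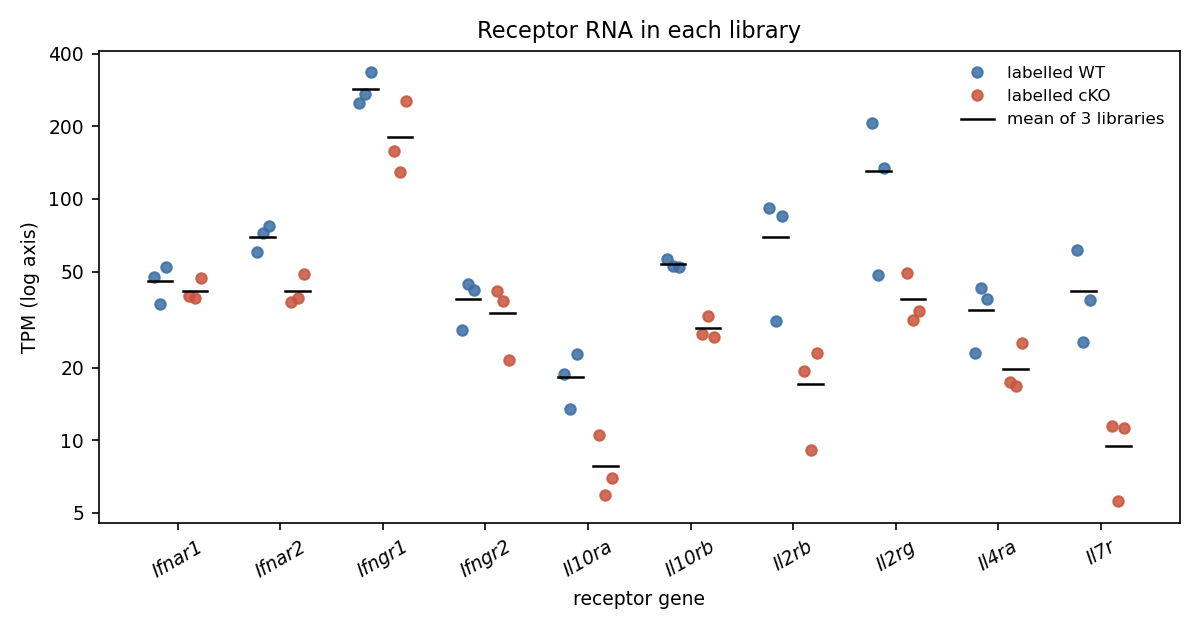
TPM (log axis) of the 10 receptor genes in each of 3 libraries labelled WT and 3 labelled cKO, with black lines at the means. *Ifnar2*, *Il10ra*, *Il10rb*, *Il2rb* and *Il7r* have no overlap between the labels, and *Ifngr1* is the most abundant chain under both.

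**Figure D2:**
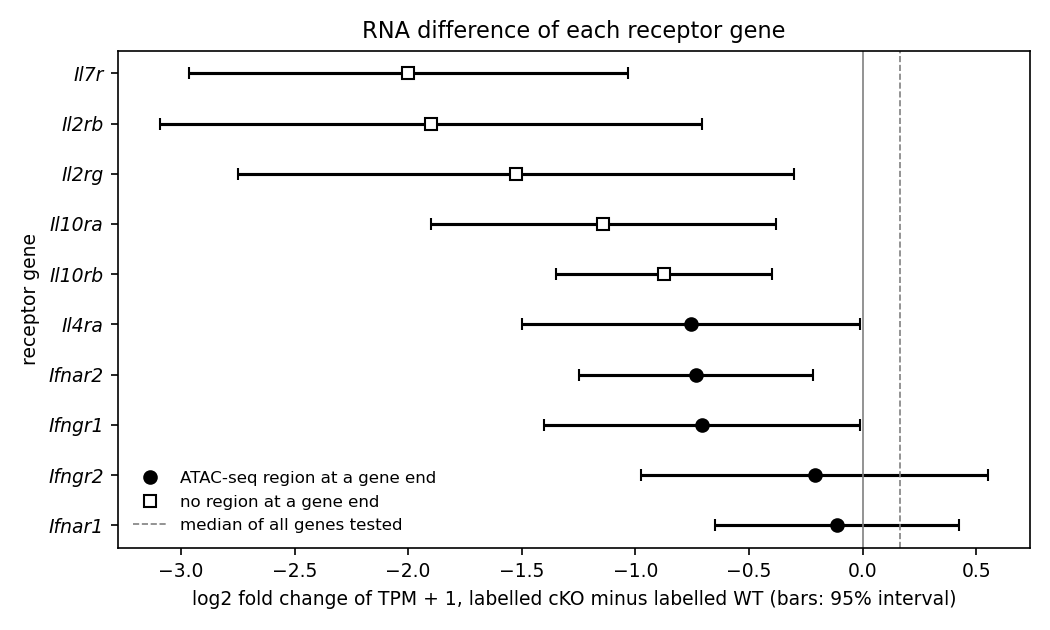
Log2 fold change of TPM plus 1 (labelled cKO minus labelled WT) for each receptor gene with its 95% interval from limma, n = 3 libraries per label. Filled circles mark genes with an ATAC-seq region at a gene end, and these 5 lie between -0.76 and -0.11, while the 5 open squares, without one, lie between -2.00 and -0.87.

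Of the interferon receptor chains, *Ifnar2* was the only one whose labels did not overlap. *Ifnar2*, the chain that binds type I interferons with high affinity, measured 60.1, 72.3 and 77.2 TPM under the WT label and 37.5, 38.8 and 48.8 TPM under the cKO label. The labels did not overlap, and the log2 fold change was -0.73 (SE 0.22, adjusted p = 0.165 by limma). *Ifnar1*, the partner that carries TYK2, measured 47.7, 36.6 and 52.3 TPM against 39.5, 38.8 and 46.9 TPM. Here every library labelled cKO fell within the range of those labelled WT, with a log2 fold change of -0.11 and a 95% interval from -0.65 to 0.42.

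The ratio of *Ifnar2* to *Ifnar1* TPM set the chains side by side within each library. It was 1.26, 1.97 and 1.48 in the libraries labelled WT and 0.949, 1.00 and 1.04 in those labelled cKO. The 2 chains were thus near equal in TPM under the cKO label, while *Ifnar2* exceeded *Ifnar1* in each library labelled WT. An exact two-sided permutation test gave p = 0.1 for this ratio, the smallest value that 3 against 3 libraries allow (0.5 after Benjamini-Hochberg adjustment over the 6 chain pairs compared). The 5 other pairs gave exact permutation p-values between 0.3 and 0.5, with overlapping labels.

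*Ifngr1*, the ligand-binding chain for interferon gamma, was the most abundant receptor transcript in all 6 libraries. It measured 250.3, 271.8 and 335 TPM under the WT label and 158, 129 and 255 TPM under the cKO label. The highest library labelled cKO, replicate 3, lay just above the lowest labelled WT, so the labels overlapped (log2 fold change -0.71, SE 0.29, adjusted p = 0.264 by limma). Its partner *Ifngr2*, which brings JAK2 to the complex, was at 28.5, 44.5 and 41.9 TPM against 41.7, 37.7 and 21.5 TPM. Those values were intermixed, with a log2 fold change of -0.21 and a 95% interval from -0.98 to 0.55. Without cKO replicate 3 the *Ifngr2* value was 0.072, so no direction can be given for this chain.

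Both IL-10 receptor chains had non-overlapping labels. *Il10ra*, which binds IL-10 and is typical of hematopoietic cells, measured 18.8, 13.4 and 22.8 TPM under the WT label and 10.5, 5.91 and 6.95 TPM under the cKO label. It was the least abundant of the 10 chains under both labels by mean TPM, and its log2 fold change was -1.14 (SE 0.32, adjusted p = 0.153 by limma). *Il10rb*, the accessory chain that is also used by receptors for IL-22 and type III interferons, had the tightest replicates under the WT label, at 56.6, 52.9 and 52.4 TPM against 27.6, 32.8 and 26.9 TPM. The gap between the labels was several times the spread within either (54.0 ± 2.28 against 29.1 ± 3.25 TPM, SD, n = 3), with a log2 fold change of -0.87 (SE 0.20, adjusted p = 0.125).

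The common-gamma family held the chains with the lowest log2 fold changes. *Il7r*, the IL-7 receptor alpha chain of naive and memory T cells, measured 61.5, 25.5 and 38.0 TPM in the libraries labelled WT and 11.5, 5.59 and 11.3 TPM in those labelled cKO. The lowest WT library was above all 3 labelled cKO, and the log2 fold change was -2.00 (SE 0.41, adjusted p = 0.124 by limma). *Il2rb*, the chain shared by the IL-2 and IL-15 receptors, followed with 91.6, 31.2 and 85.2 TPM against 19.3, 9.15 and 23.0 TPM. Again no value overlapped, although WT replicate 2 stood well under the other WT libraries (log2 fold change -1.90, SE 0.51, adjusted p = 0.147).

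*Il2rg* encodes the common gamma chain itself, which recruits JAK3 and is shared by the receptors for IL-2, IL-4, IL-7, IL-9, IL-15 and IL-21. Its values were 207, 48.2 and 135 TPM under the WT label and 49.4, 31.6 and 34.3 TPM under the cKO label. WT replicate 2 fell just below cKO replicate 1, so the labels overlapped by that pair, and the log2 fold change was -1.53 (SE 0.52, adjusted p = 0.195 by limma) with all libraries and -2.12 without WT replicate 2. *Il4ra*, the binding chain for IL-4 and a part of the IL-13 receptor, measured 22.9, 42.9 and 38.4 TPM against 17.4, 16.8 and 25.3 TPM. WT replicate 1 was its low library and lay under cKO replicate 3 (log2 fold change -0.76, SE 0.31, adjusted p = 0.264).

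WT replicate 2 therefore had the lowest *Il2rb*, *Il2rg*, *Il7r*, *Il10ra* and *Ifnar1* of its group and the highest *Il4ra* and *Ifngr2*. By mean TPM under the WT label the order was *Ifngr1* (286), *Il2rg* (130.0), *Ifnar2* (69.9), *Il2rb* (69.3), *Il10rb* (54.0), *Ifnar1* (45.5), *Il7r* (41.7), *Ifngr2* (38.3), *Il4ra* (34.7) and *Il10ra* (18.3). Most neighbours in this order were separated by less than the larger of their SDs. The exceptions were *Ifngr1* above *Il2rg*, *Il10rb* above *Ifnar1* and *Il4ra* above *Il10ra*. Under the cKO label *Ifngr1* (181) was followed by *Ifnar1* and *Ifnar2* (both 41.7), *Il2rg* (38.4), *Ifngr2* (33.6), *Il10rb* (29.1), *Il4ra* (19.8), *Il2rb* (17.1), *Il7r* (9.46) and *Il10ra* (7.80). Here the gaps larger than either SD were below *Ifngr1*, *Il10rb* and *Il2rb*.

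The 5 chains that are best known from leukocytes (*Il10ra*, *Il2rb*, *Il2rg*, *Il4ra* and *Il7r*) made up 47.5%, 25.2% and 36.4% of the summed TPM of the 10 genes in the libraries labelled WT. In those labelled cKO they made up 26.2%, 19.9% and 20.2%. WT replicate 2 lay inside the range of the libraries labelled cKO on this measure. On the log2 scale of TPM plus 1, their mean minus the mean of the 5 broadly expressed chains was -0.23, -1.22 and -0.58 against -1.36, -1.99 and -1.49, so each library labelled cKO was below each labelled WT. *Il4ra* was placed in this group as a common-gamma family chain. Under the WT label it did not vary with the rest of the group, being highest in WT replicate 2, where the others were lowest.

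Leukocyte markers differed between the labels in the same direction. The summed TPM of 15 T cell genes was 3137, 1033 and 2519 in the libraries labelled WT and 668, 272 and 602 in those labelled cKO, and 13 of the 15 were lower at an unadjusted p under 0.05 (median log2 fold change -1.99, none of them past the adjusted threshold). The 2 highest of these genes were *Trac* (79.2 to 952 TPM over the 6 libraries) and *Trbc2* (73.3 to 923 TPM), which encode T cell receptor constant regions. *Ptprc*, which encodes the pan-leukocyte antigen CD45, was at 286, 76.6 and 240 TPM against 81.1, 48.1 and 67.6 TPM.

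Myeloid genes showed a smaller median difference, with 7 of 18 lower at an unadjusted p under 0.05. Their sum was 3825, 2676 and 4138 TPM against 1631, 1209 and 1129 TPM, led by *Lyz2* (log2 fold change -1.80) and *C1qa* (-1.25), while *Csf1r*, which defines the lineage, overlapped between the labels (71.4, 94.3 and 207 TPM against 84.9, 80.6 and 77.2). Sums for NK cell genes were 117 to 365 TPM against 34.4 to 87.4, for B cell genes 32.0 to 111 against 10.8 to 21.5, and for neutrophil genes 2.42 to 21.5 against 0.107 to 15.4.

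The other retinal lists differed among themselves. The 14 RGC genes summed to 202, 274 and 189 TPM against 292, 258 and 268 TPM, with *Thy1* (51.9 to 88.5 against 94.4 to 129 TPM) and *Isl1* (51.9 to 98.0 against 55.8 to 104 TPM) the most abundant. These genes carry much of the sum, and *Thy1* encodes the sorting antigen that T cells also carry. The sum is therefore no measure of RGC content. Of the 11 tested, 3 were higher at an unadjusted p under 0.05 (11.9% of all genes), *Thy1* among them, and 4 had a negative log2 fold change, including *Rbpms* (-0.41). The 6 rod genes summed to 12156 to 16973 TPM against 24827 to 47414, and all 6 were higher at an unadjusted p under 0.05. Since TPM values have a common total, a gain in one gene set is a loss in others, and the part of the rod genes in the lower receptor TPM was not tested.

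The Mueller glia and astrocyte list had the same sign as the receptors, with 7 of 7 log2 fold changes negative and 2 of 7 lower at an unadjusted p under 0.05. Its sum was 6015, 11185 and 12489 TPM against 5709, 5771 and 13861 TPM, with overlapping labels. Endothelial genes summed to 303, 665 and 616 TPM against 254, 331 and 677 TPM, and 4 of the 5 tested had a negative value. Bipolar cell genes (658 to 938 against 918 to 1271 TPM) and amacrine cell genes (222 to 429 against 568 to 1211 TPM) were mostly positive, at 5 of 5 and 5 of 6. The part of these cells in the receptor values was not tested.

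Set against these markers, the chains varied to different degrees, and the result depended on the marker used. Per 100 TPM of the summed T cell genes, *Il2rb* stood at 2.92, 3.02 and 3.38 TPM in the libraries labelled WT and 2.89, 3.37 and 3.81 in those labelled cKO. *Il7r* stood at 1.96, 2.47 and 1.51 against 1.72, 2.06 and 1.87 on the same scale. The labels overlapped in both, although the TPM values of both genes did not overlap.

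*Il2rg* per 100 TPM of *Ptprc* was 72.5, 62.9 and 56.3 against 60.9, 65.8 and 50.8, but per 100 TPM of T cell genes it was 6.60, 4.66 and 5.35 against 7.40, 11.6 and 5.70. *Il10ra* per 100 TPM of the summed myeloid genes was 0.492, 0.502 and 0.550 against 0.645, 0.489 and 0.616, but per 100 TPM of *Ptprc* it ranged from 6.58 to 17.5 over the 6 libraries. The labels overlapped in all 4 of these ratios. *Il10rb* per 100 TPM of myeloid genes was 1.48, 1.98 and 1.27 against 1.69, 2.71 and 2.38. *Il4ra* varied more, at 0.731, 4.16 and 1.52 per 100 TPM of T cell genes against 2.60, 6.19 and 4.19. *Ifngr1* per 100 TPM of *Ptprc* also varied widely, from 87.6 to 355 under the WT label and from 195 to 377 under the cKO label. How far leukocyte content accounts for the receptor differences was not tested.

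**Figure D3:**
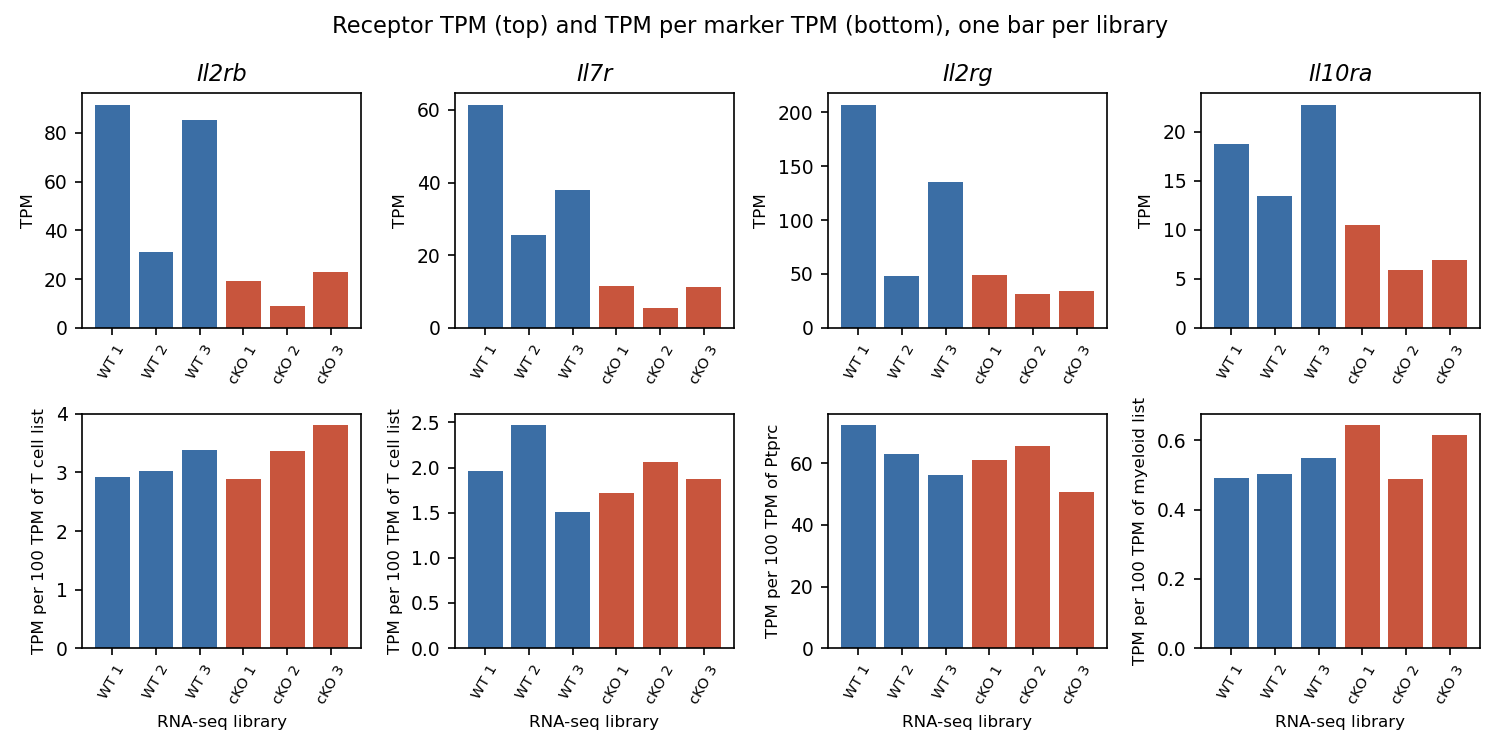
TPM of 4 receptor genes (top) and the same value per 100 TPM of a marker total (bottom: 15 summed T cell genes, *Ptprc*, or 18 summed myeloid genes), with 1 bar for each library labelled WT (blue) or cKO (red). The top bars are lower under the cKO label except for the *Il2rg* pair of WT 2 and cKO 1, while the bottom bars overlap, with *Il2rb* at 2.89 to 3.81 in all 6 libraries.

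For each chain the closest profiles were sought among 12662 other genes with a mean TPM of 5 or more, by the root-mean-square difference of mean-centred log2(TPM + 1) over the 6 libraries. *Il2rb* was closest to *Slamf6*, a lymphocyte surface receptor (difference 0.0426), and then to *Lsp1*, a leukocyte actin-binding protein gene. *Il2rg* was closest to *Cd27* (0.0612), a T and B cell receptor of the TNF receptor family, and then to the lymphocyte GTPase gene *Gimap4*. *Il10ra* had *Mcm3*, a replication helicase subunit gene, among its closest.

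*Il7r* was nearest to *Capg* and *Zbp1*, and *Il10rb* to *Vamp5* and *Ccdc122*. The interferon receptor chains had other neighbours: *Ifnar1* lay nearest to *Cdkn1b* (0.0475) and *Cflar*, *Ifnar2* to *Mapre1* (0.0611) and *Rbm43*, *Ifngr1* to *Parp14* and *Dnase1l1*, and *Ifngr2* to *1700037H04Rik* and *Arrdc2*. *Il4ra* had the closest match of all 10, with *Enho* (0.0319), followed by *2310011J03Rik*. Among the chains themselves, *Il2rb* and *Il7r* were each other's nearest (0.279), as were *Ifnar2* and *Il4ra* (0.192). These likenesses describe 6 libraries that share labels and cell content.

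The wider pathway, a list of 93 ligands, other receptor subunits, kinases, STAT factors, inhibitors and target genes, showed the same sign. Of the 57 that passed the filter, 0 passed the adjusted threshold in limma, 34 had an unadjusted p under 0.05 with lower values under the cKO label (6.45% of all genes), 0 did so in the higher direction (11.9%), and 53 had a negative log2 fold change (median -1.26). In 33 of the 57 every library labelled cKO was below every one labelled WT (7.18% of all genes).

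Ligands were sparse. Of the 33 listed, 19 were at 0 in all 6 libraries, among them *Ifnb1* and most interferon alpha genes, a family of near-identical copies whose reads the counting could divide or leave out. *Ifng* was at 159, 15.2 and 117 TPM against 29.2, 6.88 and 20.5 TPM, with overlapping labels and an adjusted p of 0.303. *Il10* was at 16.2, 1.68 and 9.47 TPM against 1.37, 0.127 and 0.249 TPM, and the labels did not overlap (log2 fold change -2.39, SE 0.70, adjusted p = 0.162 by limma). WT replicate 2 was the low WT library for both cytokines, as for *Il2rb*, *Il2rg* and *Il7r*.

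Of the 6 partner chains tested, 3 were lower at an unadjusted p under 0.05. These were *Il2ra*, the IL-2 receptor alpha chain (8.45 to 12.3 against 1.00 to 4.89 TPM), *Il15ra* (6.56 to 11.7 against 1.72 to 3.30 TPM) and *Il21r* (23.3 to 55.8 against 6.38 to 17.2 TPM). The 3 that did not pass had log2 fold changes of -0.87 (*Crlf2*), -0.29 (*Il13ra1*) and -0.15 (*Il20ra*), with overlapping labels. Of the 4 JAK genes only *Jak3*, the kinase that binds the common gamma chain, was lower at that threshold (23.9 to 51.9 against 7.54 to 18.0 TPM), whereas *Jak1*, used by all of these receptors, was at 171 to 293 against 151 to 250 TPM. Of the STAT and ISGF3 genes, *Stat4* (7.29 to 34.6 against 4.46 to 6.75 TPM) and *Irf9* (115 to 122 against 34.0 to 82.2 TPM) were lower at an unadjusted p under 0.05.

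Feedback inhibitors were mixed, with 5 of 9 lower at that threshold. *Socs1*, an inhibitor of JAK activity, was at 11.3, 12.7 and 11.7 TPM against 3.49, 1.61 and 3.39 TPM (log2 fold change -1.79, SE 0.31, adjusted p = 0.124 by limma). *Socs2* was at 11.5 to 22.7 against 19.2 to 30.1 TPM, and it passed an unadjusted p of 0.05 in the higher direction only when replicate number was a block (log2 fold change 0.58).

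Target genes were the most uniform group, with 20 of 24 lower at an unadjusted p under 0.05 and 0 higher. *Bst2*, which tethers virions to the cell surface, was at 145, 103 and 78.8 TPM against 27.7, 14.8 and 34.4 TPM (log2 fold change -2.08, SE 0.37, adjusted p = 0.124 by limma). The interferon-inducible GTPase genes *Igtp* (-1.90), *Gbp2* (-1.74) and *Gbp3* (-1.74), and the antigen-processing genes *Psmb9* (-1.69) and *Tap1* (-1.67), also had labels that did not overlap.

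ATAC-seq gave group values only, as the log2 of mean normalized reads, so the differences at these regions have no replicate error and no test. Each of the 5 regions lay at the start of its gene: *Ifnar1*, *Ifnar2*, *Ifngr1*, *Ifngr2* and *Il4ra*. All 5 were lower in cKO by 1 or more on the log2 scale, as were 89.0% of the 8001 regions at gene ends (59.8% of all regions), so this count is near its background, and 0 were higher by as much (1.7%). Differences of -2 or lower were present at 3 of the 5 (67.6%), and the same 3 lay below the median difference of all regions, which was -1.57 (79.6% of gene-end regions).

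At *Ifngr1* the region chr10:19591431-19592424 spanned the start site and had a log2 value of 6.02 in WT and 3.06 in cKO, which is 64.9 against 8.34 normalized reads. At *Ifnar1* the region chr16:91484867-91485569, also across the start, was at 5.01 against 2.06, or 32.2 against 4.17 reads. The *Ifnar2* region, chr16:91372785-91373261, began 2 bp after the annotated start and was at 3.86 against 0.86, or 14.5 against 1.82 reads. These differences of -2.96, -2.95 and -3.00 lay somewhat past the median of all gene-end regions (-2.50), of which 31.2% to 32.9% had a still lower value.

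The other 2 regions differed less than most. *Il4ra* had the widest, chr7:125551905-125553154, with 4.89 against 3.36, or 29.7 against 10.3 reads. *Ifngr2* had chr16:91547135-91547723, within the first part of the gene, with 3.72 against 2.25, or 13.2 against 4.76 reads. Their differences of -1.53 and -1.47 were exceeded in the lower direction by 80.3% and 81.7% of gene-end regions. The *Ifnar1*, *Ifngr1* and *Il4ra* regions covered all 250 promoter bases described above, and those of *Ifnar2* and *Ifngr2* covered none.

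**Figure D4:**
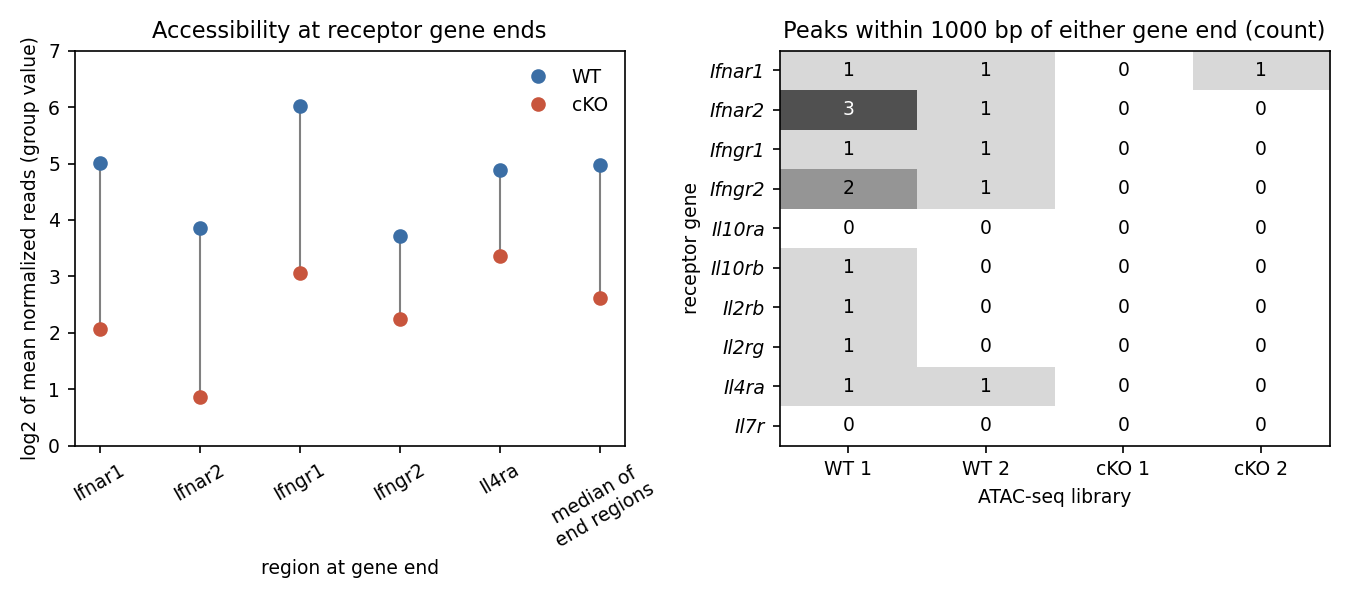
Left, log2 of mean normalized reads in WT and cKO (group values, no error available) for the region at each of 5 receptor gene ends and for the median of 8001 gene-end regions. Right, number of peaks within 1000 bp of either gene end in each of 4 ATAC-seq libraries, where *Il10ra* and *Il7r* have none and the cKO libraries have a single peak, at *Ifnar1*.

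Peak lists by library showed how the 10 genes divided. WT library 1 had a peak near an end of 8 of the genes (65.1% of tested genes with a position), WT library 2 of 5 (58.2%), cKO library 1 of 0 (13.6%) and cKO library 2 of 1 (13.9%). In the same order the libraries held 76522, 42265, 55902 and 68317 peaks in all. Both cKO libraries thus had more peaks than WT library 2, but near the ends of fewer genes, across all genes and not only these 10. Each of the 5 regions held a peak in both WT libraries and in neither cKO library, as did 81.6% of gene-end regions. Counting both gene ends, *Ifnar2*, *Ifngr1*, *Ifngr2* and *Il4ra* had this pattern, which is 4 of 10 against 37.5% of the 15514 tested genes with a position. *Ifnar1* was the exception, since cKO library 2 had a peak near its far end.

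Peaks in WT library 1 alone were present at *Il10rb*, *Il2rb* and *Il2rg* (10.2% of genes). The one at *Il2rg* covered all 250 bases of the promoter shown above, and the one at *Il10rb*, chr16:91406310-91406982, also lay within 1000 bp of the far end of *Ifnar2*. No library had a peak at either end of *Il10ra* (chr9:45253837-45269149) or *Il7r* (chr15:9506159-9529941). In all, 5 of the 10 genes had a region at an end, as did 51.5% of genes.

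The genes with and without a region had different median RNA changes. The log2 fold changes of the 5 with one ran from -0.76 to -0.11 (median -0.71). Those of the 5 without one ran from -2.00 to -0.87 (median -1.53). The ranges did not overlap with all libraries, but their nearest members, *Il4ra* (SE 0.31) and *Il10rb* (SE 0.20), lay within these errors. Without WT replicate 1 the ranges overlapped, with *Il4ra* at -1.02 and *Il10rb* at -0.84. All broadly expressed chains but *Il10rb* had a region, and of the chains grouped above with leukocytes only *Il4ra* did. Over all tested genes the medians were 0.16 with a region and 0.086 without. Few genes of any marker list had a region at an end. The counts were 3 of 15 for T cells, 0 of 18 for myeloid cells, 3 of 14 for RGCs, 0 of 6 for rods, 1 of 5 for bipolar cells, 2 of 6 for amacrine cells, 2 of 7 for Mueller glia and astrocytes and 0 of 7 for endothelial cells, and *Ptprc* had no peak there in any ATAC-seq library.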

How the data were processed

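RNA-seq and ATAC-seq libraries came from retinal cells sorted with a Thy1.2 antibody. For RNA-seq, the authors trimmed reads, quantified them with Salmon 1.0.0 on GENCODE and deposited TPM per gene and library, with no scaling between libraries. For ATAC-seq, reads were aligned with Bowtie2 2.3.5.1 to GRCm38, and the authors deposited log2 group means of normalized reads per region (DiffBind) with per-library peak positions. MACS2 2.2.5 is named in the submitters' processing notes. The authors' own comparisons (fold changes, p-values and FDR from DESeq2 1.26.0 and DiffBind) were not used.

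Here, the 17555 genes that reached 1 TPM in 3 or more of the 6 libraries were kept, log2(TPM + 1) was compared by label with limma 3.58.1 in R 4.3.3 (empirical Bayes with a trend), and p-values were adjusted by Benjamini-Hochberg with a threshold of 0.05. For weakly expressed genes the added 1 makes this fold change too small. The fit was tested on simulated data. Python 3.11.15 with pandas 2.3.3 and matplotlib 3.10.9 handled regions and figures. Gene positions and promoters were from RefSeq on GRCm38.p6, and printed positions count from 1. Regions and peaks within 1000 bp of either gene end were taken.

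The members, the pathway and marker lists and the tests were chosen with earlier results of these data known. All 10 members are named. Of the pathway list, the 8 genes with the largest log2 fold change in each direction with an unadjusted p under 0.05 and no overlap were to be named, with their values; *Ifng*, *Ifnb1*, *Il2ra*, *Il15ra*, *Il21r*, *Crlf2*, *Il13ra1*, *Il20ra*, *Jak1*, *Jak3*, *Stat4*, *Irf9* and *Socs2* were chosen after their values were seen. Some genes are not reported here. Same-numbered libraries deviated together across genes (r = 0.334, 0.101 and 0.425, all above 0.1), so their numbers were taken to pair them, and the block was run as an alternative. Of the differently numbered pairs, WT 1 with cKO 2 had r = 0.193, above the 0.101 of the libraries numbered 2, and the rest were negative. The pairing of the libraries numbered 2 is therefore not clear from these values. Other alternatives were a pseudocount of 0.1, no filter, scaling by the median of ratios, a minimum mean TPM of 5, no trend, leaving out each library, a window of 3000 bp and a log2 difference of 2. Column sums of TPM were 995278 to 999315 and give no depth.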

Additional observations from a re-analysis of the deposited data

How the results depend on the processing

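Of 120 alternative values for single receptor genes, 119 kept their direction and their side of the adjusted threshold. The exception was *Ifngr2*, whose log2 fold change ranged from -0.41 to 0.072 with 1 library left out, the latter without cKO replicate 3. No receptor gene was called under any RNA alternative. Leaving out 1 library at a time, the number lower at an unadjusted p under 0.05 (8 with all libraries) ranged from 4 to 7. It was 4 without WT replicate 3 (4.97% of all genes) and 5 without cKO replicate 1 (5.24%) or cKO replicate 2 (4.12%). The number with no overlap (5) ranged from 5 to 8, being 8 without WT replicate 1, where the share of all genes was 14.3%. The cause was not tested beyond the smaller number of libraries. With the replicate block, 8 receptor genes stayed lower at that threshold, the lowest adjusted p was 0.0585 (*Il2rb* and *Il7r*), and 1 pathway gene was higher at an unadjusted p under 0.05 where 0 were without it. Pathway genes lower at that threshold numbered 39 with the block (8.52% of all genes) and 34 without it (6.45%). Over all genes 1 was lower at the adjusted threshold with the block where 0 were without it. The block called no receptor or pathway gene. Among all genes with an unadjusted p under 0.05, the share that was higher under the cKO label was 64.9% as deposited and 44.2% after scaling by the median of ratios, which put the median of all genes at 0.012 and the members' median at -0.98. At gene ends, 3 of the 5 regions had a log2 difference of at least 2, and 3 were lower relative to the median of all regions. Within 3000 bp, 2 genes had peaks in both WT and neither cKO library, where 4 did within 1000 bp. For ATAC-seq no paired analysis was possible, because only group means per region were at hand. Depth is unknown for all libraries, and exact permutation tests of 3 against 3 libraries cannot go below 0.1.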

Other observations

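*Il7r*, which had no peak at either end, had a region inside the gene. This region, chr15:9525590-9526293, lay 3648 bp in from the start of the gene, with peaks in both WT libraries and neither cKO library. Its log2 group values were 3.53 in WT and 2.63 in cKO, a difference of -0.90, which is smaller than the median of all regions (-1.57). It was the only region inside any of the 10 genes that was not at an end.

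Peaks inside the genes away from their ends were otherwise not shared. Over the 10 genes there were 24 of them, 4 in WT library 1, 5 in WT library 2, 6 in cKO library 1 and 9 in cKO library 2. The pair that overlapped between libraries was the one at *Il7r*.

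*Ifnar2*, *Il10rb*, *Ifnar1* and *Ifngr2* lie in that order along chromosome 16, within 191225 bp. This stretch held 5 regions, of which 4 had a log2 difference of -1 or lower, against 59.8% of all regions and 89.0% of regions at gene ends. The 3 at gene ends had peaks in both WT libraries and neither cKO library, whereas chr16:91449050-91449736 (-0.73) and chr16:91533187-91534001 (-1.80), within 1000 bp of no end of these 4 genes, each had a peak in WT library 1 and in a cKO library.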
